A study of Mus musculus with 9 samples.

Results

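The IL-1 family of cytokines, their antagonist, their receptors and the adaptor of those receptors were followed in mouse articular chondrocytes made to express OSCAR and then exposed to 5-ASA. The set was given by name and holds 10 of the 55471 genes listed for every sample: the ligands Il1a, Il1b, Il18 and Il33, the receptor antagonist Il1rn, the receptor chains Il1r1, Il1rap and Il1rl1, the decoy receptor Il1r2 and the adaptor Myd88. Of these, 8 of 10 passed the filter on low counts, and Il1b and Il1r2 did not.

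Chondrocytes, the cells that make and maintain cartilage matrix, had been isolated from the knee-joint ends of the femur and tibia of wild-type mice aged 5 days, and poly(A) RNA was sequenced in 3 groups of 3 samples. All 9 samples had received an adenovirus. Control received a control virus, Ad-OSCAR received a virus carrying OSCAR, a collagen receptor, and Ad-OSCAR + 5-ASA received that virus followed by 5-aminosalicylic acid (mesalamine), an anti-inflammatory drug. The labels give infection for 2 h at 400 MOI (multiplicity of infection) after 3 days of culture, and 36 h of culture before the drug. The methods of the study instead give 2 days of culture, a higher MOI and 24 h with or without 10 µM 5-ASA, on plates coated with a collagen peptide that binds OSCAR and without added IL-1β. The model is bulk RNA of an infected primary culture, in which fewer cells of a type and less RNA per cell cannot be told apart. The labels do not say whether the 3 samples of a group came from separate animals or cultures, so the p-values measure only the spread between these samples, which may be technical.

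IL-1α and IL-1β bind IL1R1, which recruits the shared chain IL1RAP and signals through MyD88 to NF-κB and MAP kinases, and in cartilage this route is known for raising matrix-degrading enzymes and lowering matrix synthesis. IL1RN occupies IL1R1 without signalling, and IL1R2 binds ligand without a signalling domain. IL-33 uses IL1RL1 (ST2) with the same shared chain, and IL-18 uses a receptor pair of its own, also through MyD88.

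Each sample held 19733448 to 28192740 estimated counts. Oscar, the gene carried by the virus, had 3 to 4 counts in the Control samples, 173445 to 187278 in Ad-OSCAR and 80766 to 94199 in Ad-OSCAR + 5-ASA. Its mean was 6665 ± 397 CPM (SD, n = 3, CPM being counts scaled to the library size after TMM) in Ad-OSCAR and 3399 ± 404 CPM in Ad-OSCAR + 5-ASA, so the drug comparison was made between samples that also differed in the transgene, and the part of that difference in the results was not tested. The summed level of 7 chondrocyte markers, in TPM (a level per transcript length, scaled to the library), was 13842 to 15726 in Control. It was 1418 to 1538 in Ad-OSCAR and 1439 to 1585 in Ad-OSCAR + 5-ASA. By the test described below, 6 of 7 were called lower and 1, Prg4, higher in Ad-OSCAR, beside 32.2% and 32.7% of all genes tested. With 5-ASA, 5 of 7 were called higher and 1 lower than in Ad-OSCAR, beside 10.4% and 7.38%. The 8 macrophage and monocyte markers summed to 15.8 to 19.1, 41.9 to 42.5 and 30.1 to 33.2 TPM in the same order. That sum was mostly Cd68 and Cd14, while Ptprc, Adgre1 and Itgam had no more than 3 counts in any sample. Of the 4 tested, 2 were called higher and 1 lower in Ad-OSCAR, and 0 higher and 2 lower with 5-ASA, beside the same shares of all genes. Mrc1 went against the sum, from 0.45 to 0.67 TPM in Control to 0.30 to 0.44 in Ad-OSCAR. Of the 5 neutrophil markers S100a9 was at 0 in every sample and S100a8 alone reached 47.0 to 49.3 TPM in Ad-OSCAR. Among the 5 mast cell markers Mcpt4, Fcer1a and Tpsb2 were at 0, and the summed level reached 1.08 TPM. The 5 lymphocyte markers (Cd3e at 0) summed to at most 0.81 TPM and the 4 endothelial markers to at most 0.33 TPM. The 4 fibroblast markers summed to 2668 to 2928 TPM in Control, 889 to 977 in Ad-OSCAR and 956 to 1185 in Ad-OSCAR + 5-ASA. All 4 were called lower in Ad-OSCAR, and 2 were called higher with 5-ASA. The 1 neutrophil marker tested was called higher in Ad-OSCAR and lower with 5-ASA. The 1 mast cell marker tested was called higher with 5-ASA. The shares of all genes are those given above. The part of these shifts in the IL-1 family results was not tested.

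Each of the 8 members tested was called under OSCAR. Il1a, Il33 and Il1rap rose, and Il1rn, Il1r1, Il18, Il1rl1 and Myd88 fell, by edgeR's quasi-likelihood test at a Benjamini-Hochberg adjusted p below 0.05. The 3 members called higher stood against 32.7% of all 15362 genes tested, and the 5 members called lower against 32.2%, so a call in itself was common, and 1 of the 3, Il1a, passed the filter on low counts only through the groups with OSCAR. With the limit of the study for this comparison, a log2 fold change beyond 1.5 in size, 1 member was higher (Il1a, background 4.57%) and 1 was lower (Il1rn, background 5.39%). The median log2 fold change of the 8 members was -0.38, beside 0.02 for all genes tested.

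**Figure D1:**
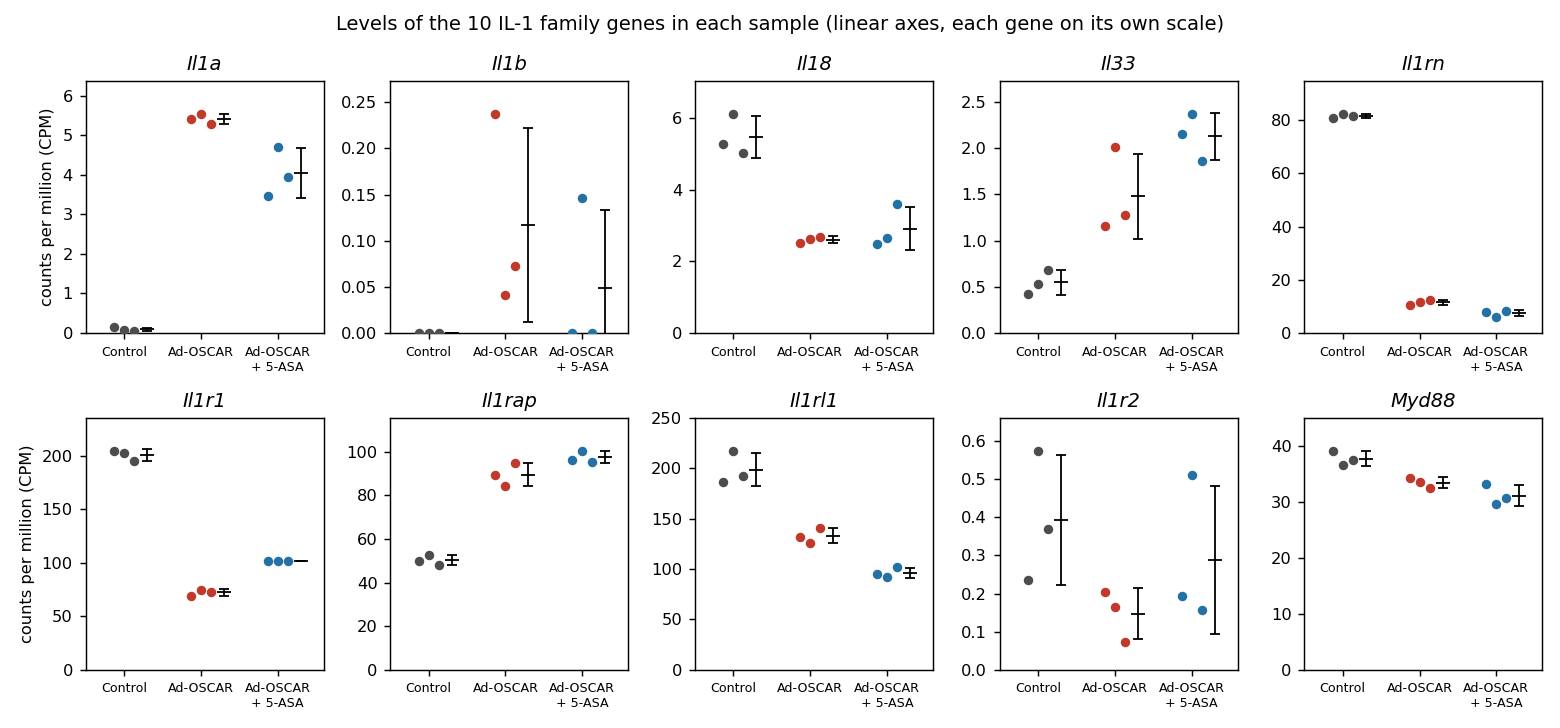
Level of each of the 10 IL-1 family genes in CPM (linear axis from 0, a separate scale for each gene), with 1 point for each sample and, beside the points, the mean and SD of the 3 samples of a group. Il1a went from 0.0529 to 0.142 CPM in Control to 5.27 to 5.54 in Ad-OSCAR, whereas Il1rn went from 80.8 to 82.3 CPM down to 10.5 to 12.5.

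Among the ligands, Il1a, which encodes IL-1α, a cytokine that is active as its precursor and can act from the nucleus or the cell surface as well as after release, showed the widest gap between groups. The gene lies at chr2:129299610-129309972 on the minus strand (GRCm38) and has 1 annotated transcript, of 1974 bases. It had 3, 2 and 1 counts in the Control samples, 159, 135 and 145 in Ad-OSCAR, and 90.2, 129 and 99.7 in Ad-OSCAR + 5-ASA. Every Control sample was at or under 3 counts, the floor used here for a detectable level, and every other sample was far above it. Pooled over samples, 439 counts against 6 gave a ratio of 58.0 between Ad-OSCAR and Control (95% exact interval 26.4 to 159, for counting error only). Il1a passed the filter on low counts only through the groups that received OSCAR and so had to differ from Control once tested, and its fitted log2 fold change of 5.78 depends on the counts added in the fit.

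The drug comparison shares the Ad-OSCAR samples with the comparison above. In it Il1a was 3.46, 4.71 and 3.95 CPM against 5.39, 5.54 and 5.27, and no treated sample reached the lowest untreated one. The fitted log2 fold change of -0.42 (SE 0.14) had an adjusted p of 0.0417 by edgeR's quasi-likelihood test. That call was lost with DESeq2 (adjusted p = 0.109) and without any 1 of 5 of the 6 samples compared, namely any Ad-OSCAR sample and replicates 1 and 3 of Ad-OSCAR + 5-ASA (adjusted p 0.0829 to 0.195), and over all alternatives the adjusted p ran from 0.0228 to 0.195. The treated samples still stood 43.5 times above Control (95% exact interval 19.8 to 120), a ratio of pooled counts with no test. Il1a overlaps Gm14023 on the opposite strand, which had 2 to 13.5 counts. This overlap and those named below are between whole gene spans, introns included, and whether exons overlap was not examined. No source used here gives the strand option used for counting, so where exons do overlap, reads of such genes may not be told apart.

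The stretch of 250 bases before the RefSeq start of Il1a, the member with the largest rise, is shown with a match to the AP-1 motif TGANTCA in capitals, 12 bases before the start (chr2:129309973-129310222, minus strand, GRCm38.p6, RefSeq).
Il1a upstream: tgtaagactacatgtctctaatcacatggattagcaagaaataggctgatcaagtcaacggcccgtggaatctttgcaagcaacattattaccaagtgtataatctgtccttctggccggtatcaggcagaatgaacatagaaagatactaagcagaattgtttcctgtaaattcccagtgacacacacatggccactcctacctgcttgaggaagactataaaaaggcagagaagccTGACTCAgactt
This motif, which is its own reverse complement, was found on either strand in 6.75% of the 32851 windows of this length in the table. Neither NF-κB pattern searched, GGNNTTTCC (4.93% of windows) or GGNNTTCCC (4.99%), nor the C/EBP pattern TTGCNNAA (9.56%) was found in the Il1a window on either strand, which says only that these letters are not in it.

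Il1b, the gene of IL-1β, the secreted form that needs cleavage to be active, was at the edge of detection (chr2:129364570-129371139, minus strand, the neighbour of Il1a in the family). It had 0 counts in each Control sample, 7, 1 and 2 in Ad-OSCAR, and 0, 4 and 0 in Ad-OSCAR + 5-ASA. Within Ad-OSCAR a single sample held most of the counts, and only it and 1 treated sample exceeded the floor of 3. The gene was not tested. It overlaps Il1bos on the opposite strand, which had 0 to 3 counts.

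Il18, whose product drives interferon-γ in lymphocytes, was the ligand with the highest level in Control (chr9:50554827-50581840, plus strand). It measured 5.29, 6.12 and 5.02 CPM in Control and 2.51, 2.62 and 2.69 CPM in Ad-OSCAR. The groups did not overlap, with a log2 fold change of -1.08 (SE 0.15, adjusted p = 6.24e-06 by edgeR's quasi-likelihood test), a 2.11-fold lower level. With 5-ASA it measured 2.50, 2.66 and 3.597 CPM, of which only the last was above the Ad-OSCAR range. The drug difference of 0.16 on the log2 scale (SE 0.16, adjusted p = 0.562 by edgeR's quasi-likelihood test) did not pass, and it turned to -0.01 without that treated sample (replicate 3) and to -0.07 on TPM. Il18 overlaps Bco2 and Tex12 on the opposite strand, which had no more than 9 counts.

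Il33, the gene of a nuclear cytokine set free by damaged cells, was low throughout (chr19:29925114-29960718, plus strand). It had 9, 13 and 13 counts in Control, 34, 49 and 35 in Ad-OSCAR, and 56, 65 and 47 in Ad-OSCAR + 5-ASA. Every sample with OSCAR was above every Control sample. The log2 fold change was 1.42 (SE 0.30, adjusted p = 0.000411 by edgeR's quasi-likelihood test). On TPM, the groups overlapped (0.30, 0.38 and 1.47 in Control against 0.83, 1.41 and 0.92), and the call was lost with limma on log2(TPM + 1) (0.31, adjusted p = 0.277). The Control sample at 1.47 TPM was the one to which a mean transcript length of 959 bases had been assigned, against 2537 to 2544 in the other samples. Between treated and untreated samples Il33 differed by 0.54 (SE 0.23, adjusted p = 0.115 by edgeR's quasi-likelihood test), which passed only without replicate 2 of Ad-OSCAR (0.81, adjusted p = 0.0307).

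Il1rn, the gene of the receptor antagonist, moved opposite to Il1a under OSCAR (chr2:24336853-24351494, plus strand). It measured 80.8, 82.3 and 81.4 CPM in Control, 10.5, 11.6 and 12.5 in Ad-OSCAR, and 8.04, 6.17 and 8.14 in Ad-OSCAR + 5-ASA. The 3 groups did not overlap, and the order ran from Control down to the treated samples. The level was 7.09-fold lower in Ad-OSCAR than in Control (log2 fold change -2.83, SE 0.07, adjusted p = 3.22e-16 by edgeR's quasi-likelihood test). It was a further 1.55-fold lower with 5-ASA (log2 fold change -0.63, SE 0.09, adjusted p = 0.000123 by the same test). Per transcript length the drug difference was larger, from 15.2, 16.1 and 21.1 TPM to 9.09, 6.21 and 8.03 TPM, with a log2 fold change of -1.07 (adjusted p = 0.00239 by limma on log2(TPM + 1)).

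The distance between the CPM and TPM results of Il1rn went with its mean transcript length, which RSEM derives by weighting each annotated transcript by its estimated abundance. That length was 1184, 1194 and 1349 bases in Control, 1353, 1372 and 1197 in Ad-OSCAR, and 1565, 1739 and 1821 in Ad-OSCAR + 5-ASA. Each treated sample was above every other sample. The treated mean exceeded the Ad-OSCAR mean by 401 bases (exact two-sided permutation p = 0.1, the smallest that 3 against 3 allows), and by 344 to 472 bases with any 1 of the 6 samples left out. Of the genes with enough counts for this measure, 11.2% had groups that did not overlap in the drug comparison and 17.2% in the OSCAR comparison, where Il1rn overlapped (difference 65.2 bases, exact permutation p = 0.2, 33.1 to 120.2 bases with 1 sample left out).

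Il1rn is known to give a secreted antagonist and intracellular forms from different first exons. Among its coding transcripts are Il1rn-201 (1986 bases, 178 codons, start 24345310), Il1rn-202 (728 bases, 162 codons, start 24345288) and Il1rn-204 (2474 bases, 159 codons, start 24336853). A mean length does not tell which of them changed. The 250 bases before 2 RefSeq starts, which lie near the upstream and the downstream transcripts, are given on the plus strand of GRCm38.p6 (chr2:24336610-24336859 and chr2:24345041-24345290, RefSeq), with a match to the AP-1 motif TGANTCA in capitals, 141 bases before the upstream start.
Il1rn upstream start: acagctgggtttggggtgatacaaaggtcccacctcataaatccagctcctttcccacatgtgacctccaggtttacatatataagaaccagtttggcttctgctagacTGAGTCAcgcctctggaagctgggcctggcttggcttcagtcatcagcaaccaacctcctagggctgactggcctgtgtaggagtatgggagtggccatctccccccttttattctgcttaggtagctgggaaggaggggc
Il1rn downstream start: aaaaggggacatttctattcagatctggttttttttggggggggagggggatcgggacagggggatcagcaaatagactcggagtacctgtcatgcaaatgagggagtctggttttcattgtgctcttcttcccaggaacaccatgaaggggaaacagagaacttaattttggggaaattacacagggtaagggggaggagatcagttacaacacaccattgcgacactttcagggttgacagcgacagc
None of the 4 patterns was found in the downstream window, so it holds no capitals. A further RefSeq window, which overlaps it, held GGTTTTTCC, a match to GGNNTTTCC, 50 bases before its own RefSeq start.

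**Figure D2:**
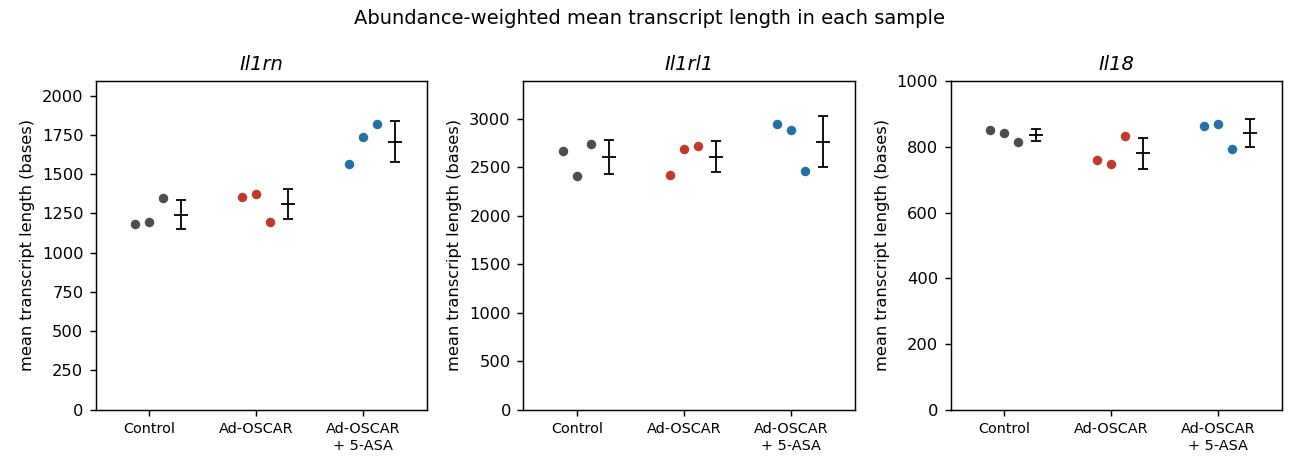
Abundance-weighted mean transcript length in bases (linear axis from 0) of Il1rn, Il1rl1 and Il18, with 1 point for each sample and the mean and SD of each group of 3. The treated samples of Il1rn lie at 1565 to 1821 bases, above the 1184 to 1372 bases of all other samples, while the groups of Il1rl1 and of Il18 overlap.

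Il1r1, the signalling receptor for both forms of IL-1, was lowered by OSCAR and higher again with the drug (chr1:40225080-40317257, plus strand). It measured 205, 203 and 195 CPM in Control, 68.9, 74.5 and 73.0 in Ad-OSCAR, and 102, 101 and 101 in Ad-OSCAR + 5-ASA. The 3 groups did not overlap, and the treated samples lay between the other groups. The level was 2.78-fold lower in Ad-OSCAR than in Control (log2 fold change -1.48, SE 0.05, adjusted p = 4.70e-15 by edgeR's quasi-likelihood test), just short of the study's limit of 1.5. It was 1.41-fold higher with 5-ASA (log2 fold change 0.49, SE 0.05, adjusted p = 7.36e-07 by the same test). It overlaps Gm38070 on the same strand, which had 1 to 20 counts. Its mean transcript length was 18.5 bases shorter with the drug, with groups that did not overlap, as in 11.2% of genes (exact permutation p = 0.1, a difference of -8.07 bases without replicate 2 of Ad-OSCAR).

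Il1rap, the co-receptor chain shared by IL-1 and IL-33, was the receptor gene that rose (chr16:26581704-26730117, plus strand). It measured 49.8, 52.8 and 48.2 CPM in Control and 89.1, 84.2 and 94.8 CPM in Ad-OSCAR. The groups stood well apart, with a 1.78-fold higher level in Ad-OSCAR (log2 fold change 0.83, SE 0.05, adjusted p = 1.74e-10 by edgeR's quasi-likelihood test). With 5-ASA it measured 96.1, 100.5 and 95.5 CPM, each just above the untreated samples, but the difference of 0.12 (SE 0.05) did not pass (adjusted p = 0.112 by the same test, 0.0512 to 0.747 over the alternatives). It overlaps Gm20319 on the opposite strand, which had up to 9.56 counts.

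Il1rl1, the receptor of IL-33, had the highest TPM of the set in each group, with Il1rn overlapping it in Control (chr1:40429570-40465415, plus strand). It measured 187, 218 and 192 CPM in Control, 132, 126 and 141 in Ad-OSCAR, and 95.2, 91.7 and 102 in Ad-OSCAR + 5-ASA. The 3 groups did not overlap. The level was 1.496-fold lower in Ad-OSCAR (log2 fold change -0.58, SE 0.06, adjusted p = 1.26e-07 by edgeR's quasi-likelihood test), and 1.38-fold lower again with 5-ASA (-0.47, SE 0.06, adjusted p = 3.37e-05). The gene encodes a membrane receptor and a soluble form that traps IL-33, which correspond to transcripts of 567 codons (5053 and 5302 bases) and of 337 codons (2661 and 1216 bases). Its mean transcript length was 2604 ± 175 bases in Control, 2609 ± 163 in Ad-OSCAR and 2764 ± 261 in Ad-OSCAR + 5-ASA (SD, n = 3), and neither difference exceeded the spread (exact permutation p = 1 and p = 0.4).

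Il1r2, the decoy receptor, was sparse (chr1:40074079-40125231, plus strand). It had 5, 14 and 7 counts in Control, 6, 4 and 2 in Ad-OSCAR, and 5, 14 and 4 in Ad-OSCAR + 5-ASA. The counts of Control and Ad-OSCAR overlapped, although scaled to depth they did not (0.236 to 0.575 CPM against 0.0727 to 0.204 CPM), and the gene was not tested. With no filter the adjusted p was 0.0464 for Ad-OSCAR against Control and 0.446 for the drug (edgeR's quasi-likelihood test). It overlaps Gm16894 and Gm37347, which had at most 3 counts.

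Myd88, the adaptor of the signalling receptors, moved least (chr9:119335934-119341411, minus strand). It measured 39.2, 36.6 and 37.5 CPM in Control, 34.4, 33.7 and 32.4 in Ad-OSCAR, and 33.2, 29.6 and 30.7 in Ad-OSCAR + 5-ASA. The first 2 groups did not overlap, by a narrow margin, and the treated samples overlapped Ad-OSCAR. The level was 1.13-fold lower in Ad-OSCAR (log2 fold change -0.17, SE 0.06, adjusted p = 0.0114 by edgeR's quasi-likelihood test), and the call was lost without replicate 3 of Ad-OSCAR (adjusted p = 0.0514) or replicate 1 of Control (0.0586). The drug difference was -0.10 (SE 0.06, adjusted p = 0.217). Myd88 overlaps Acaa1a on the opposite strand, which had 1370 to 2442 counts, and Slc22a14 on the same strand, with 6 to 42. Its mean transcript length was 14.8 bases longer in Ad-OSCAR, with groups that did not overlap, as in 17.2% of genes (exact permutation p = 0.1).

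In the drug comparison as a whole, 1 member was called higher (Il1r1, background 10.4%) and 3 lower (Il1a, Il1rn and Il1rl1, background 7.38%), while Il18, Il33, Il1rap and Myd88 did not pass. The study's limits for the drug are a fold change beyond 1.5 and an unadjusted p below 0.05, stated there against Ad-Control. When these limits were applied here against Ad-OSCAR, no member was higher by edgeR or DESeq2 (background 2.27%). With them 1 member, Il1rn, was lower (background 1.87%). It dropped out without replicate 2 of the treated samples or replicate 3 of Ad-OSCAR. The median log2 fold change of the 8 members was 0.01, beside -0.00 for all genes tested. At an unadjusted p below 0.05 whatever the fold, 3 members were higher by edgeR (Il1r1, Il33 and Il1rap). The share of all genes past that limit was not counted. This count, and those at the same limit below, are therefore not read as results about the genes named.

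**Figure D3:**
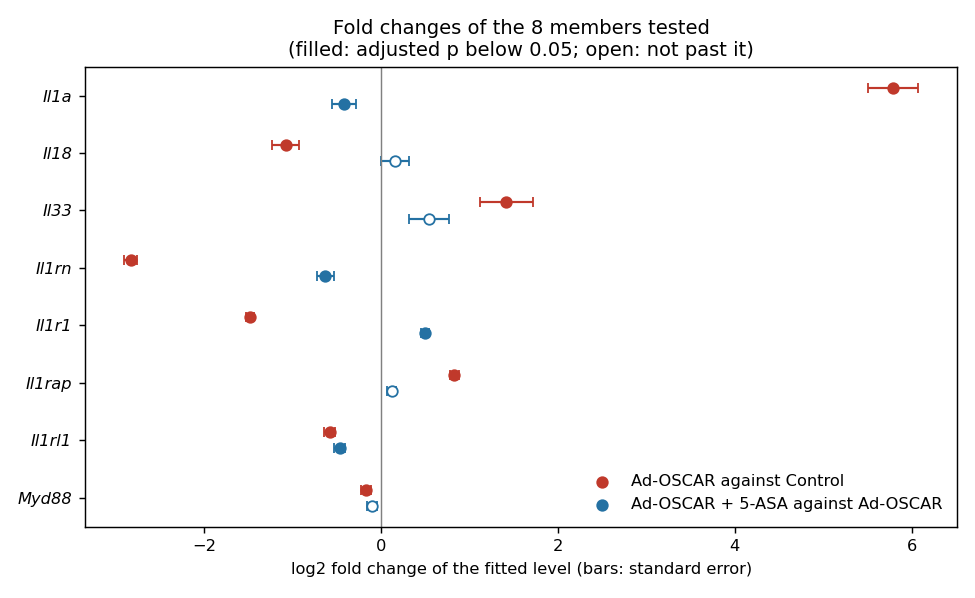
Log2 fold change of the 8 members tested, with its standard error, for Ad-OSCAR against Control and for Ad-OSCAR + 5-ASA against Ad-OSCAR. Filled points have an adjusted p below 0.05 by edgeR's quasi-likelihood test. Il1a (5.78, a fitted value that rests on 6 counts in Control) and Il1rn (-2.83) lie farthest from 0 under OSCAR, and the drug values lie between -0.63 and 0.54.

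Compared per transcript length, the order of the members changed with OSCAR. In Control the mean levels were 137 TPM for Il1rl1, 128 for Il1rn, 69.1 for Il1r1, 34.8 for Myd88, 20.4 for Il1rap and 14.0 for Il18, and the first 2 could not be ordered because their ranges overlapped. In Ad-OSCAR they were 92.5 for Il1rl1, 36.5 for Il1rap, 31.2 for Myd88, 25.4 for Il1r1, 17.4 for Il1rn, 7.42 for Il18 and 5.07 for Il1a, with no overlap between neighbours. In Ad-OSCAR + 5-ASA they were 59.6 for Il1rl1, 37.3 for Il1rap, 33.5 for Il1r1, 27.3 for Myd88, 7.78 for Il1rn, 7.22 for Il18 and 3.56 for Il1a, and only Il1rn and Il18 overlapped. The rest, Il33, Il1r2 and Il1b, stayed at or below 1.42 TPM on average in every group.

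Ratios within a sample put antagonist beside agonist and receptor beside co-receptor. Il1rn TPM was 1027 to 2307 times Il1a TPM in Control, where Il1a had no more than 3 counts, but 2.98 to 4.19 times in Ad-OSCAR and 1.51 to 3.01 times in Ad-OSCAR + 5-ASA. Il1r1 was 3.25 to 3.53 times Il1rap in Control, 0.665 to 0.756 times in Ad-OSCAR and 0.864 to 0.918 times in Ad-OSCAR + 5-ASA, so the less abundant of these chains was Il1rap in Control and Il1r1 in the other groups. Il1rl1 was 6.22 to 7.49 times Il1rap in Control, 2.42 to 2.74 times in Ad-OSCAR and 1.38 to 1.93 times in Ad-OSCAR + 5-ASA. A TPM here covers all transcripts of a gene. That of Il1rl1 pools the membrane and the soluble form, and that of Il1rap pools coding transcripts of 360 to 685 codons. The ratio of Il1rl1 to Il1rap is therefore not one of membrane receptor to co-receptor. The 3 groups did not overlap in the ratios to Il1rap. These are ratios of RNA levels and were not tested.

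**Figure D4:**
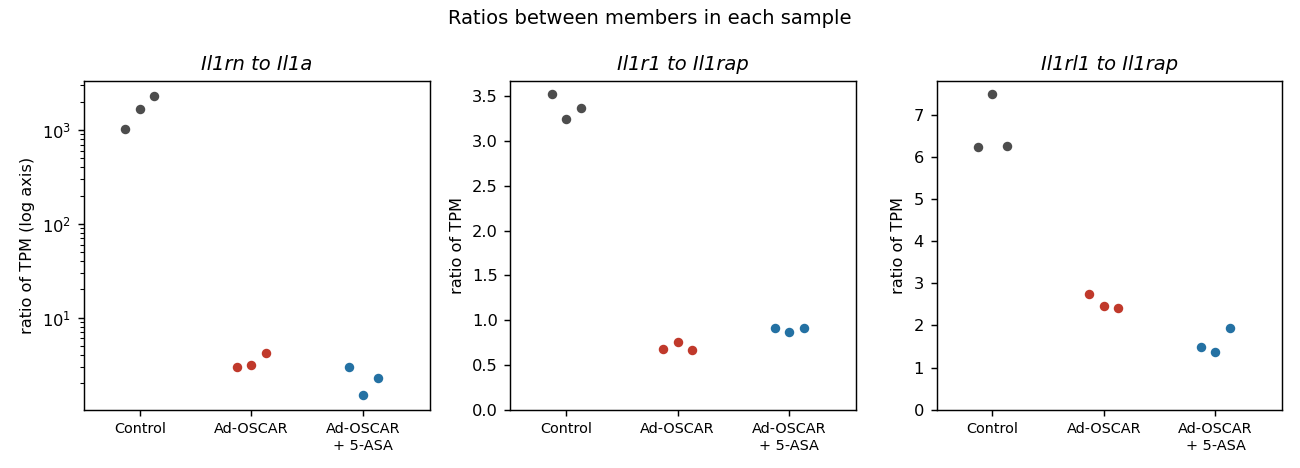
Ratio of TPM within each sample, 1 point for each of the 9 samples, for Il1rn to Il1a (log axis), Il1r1 to Il1rap and Il1rl1 to Il1rap (linear axes from 0). The ratio of Il1rn to Il1a lies at 1027 to 2307 in Control and at 1.51 to 4.19 in the other samples.

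Several members are neighbours in the genome. On chromosome 1, all on the plus strand, the order is Il1r2, Il1r1, Il1rl2, Il1rl1, Il18r1 and Il18rap. Il1r1 and Il1rl1 fell under OSCAR, as did Il18r1, a chain of the IL-18 receptor, from 19, 25 and 18 counts to 2, 4 and 0, whereas Il1rl2, the receptor of IL-36, and Il18rap did not pass. On chromosome 2, Il1rn lies beyond the IL-36 genes Il1f9 and Il1f6, agonists of Il1rl2. Il1f6 had 1, 1 and 0 counts in Control and 40, 44 and 41 in Ad-OSCAR, a ratio of pooled counts of 49.5 (95% exact interval 13.4 to 413). Il1f9 had 2, 0 and 0 counts against 39, 39 and 41, a ratio of 47.1 (12.8 to 394). Il1f6 and Il1f9 passed the filter on low counts only through the groups with OSCAR, and Il18r1 only through Control, so their calls were favoured by the filter. With 5-ASA, Il1f9 had 13, 18 and 22 counts (log2 fold change -1.12, SE 0.30, adjusted p = 0.0149 by the same test). These genes were singled out for their position and after their values were seen.

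Of the 12 other family ligands, receptors and soluble proteins listed, 7 were tested. Under OSCAR 2 rose (Il1f6 and Il1f9) and 1 fell (Il18r1), beside 32.7% and 32.2% of all genes, with a median log2 fold change of 0.20, and all 3 passed the filter through 1 side only. In the drug comparison 1 rose, Il1rl2, from 4.14 ± 0.29 to 5.99 ± 0.60 CPM (SD, n = 3, log2 fold change 0.54, SE 0.17, adjusted p = 0.0405 by edgeR's quasi-likelihood test), and 1 fell, Il1f9, beside 10.4% and 7.38% of all genes, with a median of 0.25. With 1 sample left out, the medians ran from 0.096 to 0.35 under OSCAR and from 0.084 to 0.38 with the drug. The call of Il1rl2 was lost when any 1 Ad-OSCAR sample, or replicate 1 or 2 of Ad-OSCAR + 5-ASA, was left out, and with the replicate number as a block. That of Il1f9 was lost without replicate 2 of Ad-OSCAR and without replicate 1 or 2 of Ad-OSCAR + 5-ASA.

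Of 14 genes for maturation and release of the ligands, 10 were tested, and under OSCAR 6 rose and 1 fell, beside 32.7% and 32.2% of all genes, with a median of 0.60. Of the 6, Nlrp3, the sensor of the inflammasome that activates caspase-1, passed the filter only through the groups with OSCAR. It went from 2, 0 and 0 counts to 74, 55 and 54, a ratio of pooled counts of 72.5 (95% exact interval 19.8 to 603). Casp1 itself, the protease that cleaves IL-1β and IL-18, had 2 to 8 counts in Control and 8 to 12 in Ad-OSCAR, and did not pass. Capn2, a calpain, the protease class that trims IL-1α, was the 1 that fell, from 288 ± 7.66 to 158 ± 3.29 CPM (log2 fold change -0.87, SE 0.04, adjusted p = 2.98e-12 by edgeR's quasi-likelihood test). Capn1, the other calpain of the list, was among the 6 that rose (0.37, SE 0.06, adjusted p = 2.00e-05 by the same test). In the drug comparison none rose (0 also with DESeq2, and 1 at an unadjusted p below 0.05 with edgeR) and 3 fell, beside 10.4% and 7.38% of all genes. These were P2rx7, the ATP-gated channel that triggers release (-0.33, SE 0.08, adjusted p = 0.0048 by edgeR's quasi-likelihood test), Panx1 (-0.29) and Capn1 (-0.17), with a median of -0.19. Without replicate 1 of Ad-OSCAR, or without replicate 1 of Ad-OSCAR + 5-ASA, 1 gene of the list was called lower.

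All 17 genes of the relay from the receptor were tested, and under OSCAR 9 rose and 2 fell (Ube2n and Ube2v1), beside 32.7% and 32.2% of all genes, with a median of 0.20. Irak2, a kinase of the complex on MyD88, rose most, from 11.5 ± 1.14 to 40.9 ± 0.75 CPM (log2 fold change 1.83, SE 0.07, adjusted p = 6.33e-14 by edgeR's quasi-likelihood test). Irak3, which restrains that complex, rose by a similar size (1.76). Ube2n, a ubiquitin-conjugating enzyme that works with TRAF6, fell from 79.3 ± 0.50 to 60.4 ± 0.74 CPM (-0.39, SE 0.05, adjusted p = 1.11e-06). In the drug comparison 1 rose (Tab2, 0.17, SE 0.05, adjusted p = 0.0207, lost without replicate 1 of Ad-OSCAR or replicate 2 of Ad-OSCAR + 5-ASA) and none fell (0 also with DESeq2, and 3 at an unadjusted p below 0.05 with edgeR), beside 10.4% and 7.38% of all genes, with a median of -0.02.

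Each of 24 genes known to be induced by IL-1 in chondrocytes was called higher under OSCAR, beside 32.7% of all genes, and 2 of them, Csf2 and Csf3, passed the filter on low counts only through the groups with OSCAR. The list had a median log2 fold change of 2.34, or 2.22 with Csf2, which had 0 counts in Control, set at the bound given by 3 counts per sample. Lif, a cytokine of the IL-6 type, rose from 9.21 ± 1.12 to 528.5 ± 18.04 CPM (log2 fold change 5.84, SE 0.07, adjusted p = 1.53e-20 by edgeR's quasi-likelihood test). The list was written with results of these samples known and includes enzymes on which the study reports from the same samples, so it is not independent evidence of a direction. In the drug comparison 8 of these genes rose and 4 fell (median 0.04), beside 10.4% and 7.38% of all genes. The largest drug rise was in Ccl20, a chemokine, from 157 ± 6.09 to 237 ± 22.6 CPM (0.59, SE 0.06, adjusted p = 3.39e-06), and the largest fall in Ptgs2, the inducible cyclooxygenase, from 1977 ± 142 to 1617 ± 30.7 CPM (-0.29, SE 0.07, adjusted p = 0.00417, both by edgeR's quasi-likelihood test). The other 7 that rose were the acute-phase genes Lcn2 (0.44) and Saa3 (0.26), the adhesion molecule Vcam1 (0.42), the matrix-degrading enzymes Adamts5 (0.30), Mmp3 (0.25) and Adamts4 (0.18), and the chemokine Cxcl5 (0.17). The other 3 that fell were Ptges (-0.24), Il6 (-0.21) and Cxcl2 (-0.15) on the log2 scale. The study describes the rise of MMP3, MMP13 and ADAMTS5 under OSCAR in its RNA-seq as strongly reversed by 5-ASA. Its stated 5-ASA comparison is with Ad-Control. Here, against Ad-OSCAR, Mmp3 and Adamts5 were higher with 5-ASA, and Mmp13 did not pass (0.12, SE 0.04, adjusted p = 0.0566 by edgeR's quasi-likelihood test). Without replicate 1 of Ad-OSCAR, or without replicate 1 or 3 of Ad-OSCAR + 5-ASA, 2 genes of the list were called lower.

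**Figure D5:**
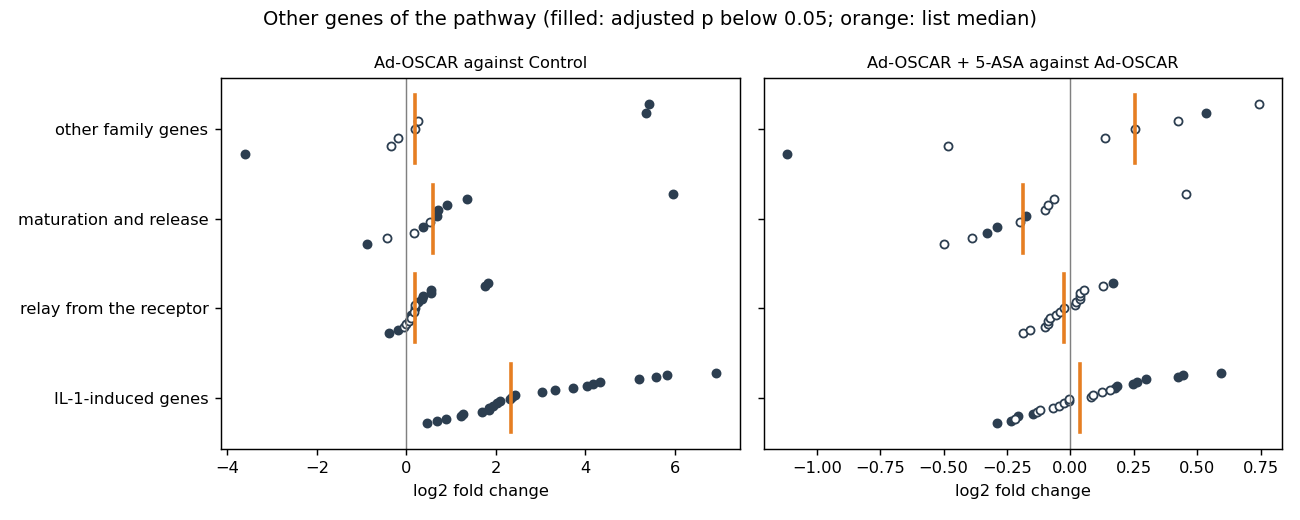
Log2 fold change of each tested gene in 4 lists of the pathway, on separate axes for the 2 comparisons, with filled points at an adjusted p below 0.05 by edgeR's quasi-likelihood test and an orange line at the median of each list. The 24 IL-1-induced genes lie to the right of 0 under OSCAR (median 2.34) and on both sides of it with 5-ASA (median 0.04).

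Over the 9 samples and 13267 genes with a mean of at least 1 CPM, the genes whose log2 CPM followed that of Il18 most closely were Slc2a13 (Pearson r = 0.986), Sema3g (0.985) and Lamb3 (0.984). For Il1rl1 they were Pola2 (0.995), Chaf1b (0.994) and Calr (0.988). The samples share 3 treatments, so these values describe a likeness across groups and carry no test.

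Of the 15 RefSeq windows that cover all 10 members, 7 windows of 6 members held at least 1 of the 4 patterns, beside 23.5% of all windows in the table. Windows of 1 gene can overlap, and the members' share was not tested. Besides those of Il1a and Il1rn, a match to GGNNTTCCC lay on the opposite strand 84 bases before the start of Il1rap, and matches to TTGCNNAA lay 133, 34 and 85 bases before a start of Il1r1, Il1rl1 and Il33. No window of Il1b, Il18, Il1r2 or Myd88 held a match.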

How the data were processed

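RNA was measured in 9 samples, 3 in each of 3 groups, which were taken from the treatment labels. According to the study, reads from stranded mRNA libraries were aligned to GRCm38 with STAR and quantified with RSEM, and the submitters' processing notes name STAR 2.7.1a, RSEM 1.3.1 and FastQC. The authors deposited, for each of 55471 genes, the estimated counts of RSEM, which need not be whole, without scaling between samples. The deposited files also hold TPM and a mean transcript length per gene, weighted over transcripts by the authors' run of RSEM. Symbols, coordinates and transcripts are from GENCODE M21 (GRCm38), in which 55144 of the identifiers were found. Promoter windows are from RefSeq (GRCm38.p6), and only the 250 bases before a start were used.

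Estimated counts were rounded and tested in R 4.3.3 with edgeR 4.0.16 (TMM, filterByExpr by group, quasi-likelihood F test without a block, 1 fit of all 9 samples, Benjamini-Hochberg adjustment over 15362 genes). The biological coefficient of variation was 5.11%, and a call is an adjusted p below 0.05. The study names DESeq2, which was an alternative here (version 1.42.0). Mean transcript length was compared by an exact two-sided permutation test for members with at least 20 counts in every sample compared, 13 tests in all and unadjusted, since none can go below 0.1. Total counts were 19733448 to 28192740 per sample. A level of 3 counts per sample was taken as the smallest that can be shown, and exact (Clopper-Pearson) intervals of pooled counts cover counting error only.

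The members and the gene lists were chosen with earlier results of these data known. Named genes are the 10 members, Oscar, the gene of each list with the largest rise and fall among those called whose mean level was 1 CPM or more, and the 3 genes most like Il18 and Il1rl1, the ligand and receptor with the highest mean TPM. Other genes are named as members of a count, after their values were seen. Replicate numbers did not pair the samples, as the deviations of same-numbered samples correlated at -0.137 to 0.0883. Replicates of a group differed by more than sampling noise. The alternatives were DESeq2, RLE normalization, robust estimation, no filter, at least 10 counts in every sample, only the groups compared, the replicate block, limma 3.58.1 on log2(TPM + 1) and each sample left out in turn. The scripts were tested on simulated data, and figures were drawn with matplotlib 3.10.9.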

Additional observations from a re-analysis of the deposited data

How the results depend on the processing

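Over 134 pairs of a member and an alternative in each comparison, 131 kept their direction and side of the threshold for Ad-OSCAR against Control and 125 for the drug. At least 10 counts in every sample left 1 member called higher under OSCAR, since Il1a and Il33 were then not tested, and 0 past the study's limits. No filter gave 2 past those limits, as Il1b, at 0 in every Control sample, was added, and leaving out 1 sample gave 1 to 2 higher and 1 to 2 lower. In the drug comparison, leaving out 1 sample gave 1 to 2 members called higher. Past the study's 5-ASA limits, stated there against Ad-Control but applied here against Ad-OSCAR, it gave 0 to 1 higher and 0 to 1 lower. With limma on log2(TPM + 1), 2 were lower past them. Over all genes in the drug comparison, limma gave 555 called higher against 1598, and leaving out 1 sample gave 721 to 1127 called lower against 1134 (721 without replicate 1 of Ad-OSCAR + 5-ASA, 736 without replicate 1 of Ad-OSCAR). Il18 turned with limma on TPM (-0.066) and ranged from -0.013 to 0.26 with 1 sample left out, and the Il1rl1 length difference under OSCAR ranged from -94.1 to 98.5 bases. For the lists, leaving out 1 sample gave these ranges. Other family genes had 1 to 2 lower and a median of 0.096 to 0.35 under OSCAR, and 0 to 1 higher, 0 to 1 lower and a median of 0.084 to 0.38 with the drug. With the drug, maturation and release had 1 to 3 lower, the relay 0 to 1 higher, 0 to 1 lower and a median of -0.053 to 0.026, and IL-1-induced genes 2 to 4 lower. The replicate block left 3 members higher and 5 lower under OSCAR and 1 higher and 3 lower with the drug, and gave 0 other family genes higher with the drug. The cause of these changes was not tested, apart from the members dropped or added by a filter. Il1a in Control, Il1b, Il1r2 and Il33 rest on few counts, which limits their precision at this depth. TPM understates folds of low genes on the log2(TPM + 1) scale.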
